A study of Mus musculus with 8 samples.

Results

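The signal transducer and activator of transcription (STAT) genes Stat2, Stat3, Stat4, Stat5a, Stat5b and Stat6 were examined in mouse bone marrow-derived macrophages (BMDMs), primary macrophages grown from marrow with macrophage colony-stimulating factor. The members were the rows of the count table whose Ensembl identifiers carry these symbols in GENCODE M21, which gave 6 genes of 49315 in the table and 6 of the 13051 that passed the filter on low counts. RNA-Seq of ribodepleted total RNA compared 4 libraries from cells transfected with control gapmeR (negative control #1; replicates 2, 5, 6 and 7) with 4 from cells transfected with a gapmeR against the lncRNA MAARS (replicates 9, 11, 13 and 15). GapmeRs are antisense oligonucleotides that direct RNase H to their target RNA. All cells came from C57BL/6 mice, were cultured in 10 ng/ml mMCSF and received 25 nM gapmeR, and the labels do not give the age of the mice, the time after transfection or whether libraries of a group came from separate mice or cultures. The p-values therefore measure only the spread between these libraries, and with a single gapmeR sequence for each group, loss of MAARS cannot be told apart from other effects of that oligonucleotide.

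STAT proteins wait in the cytoplasm until a cytokine receptor is engaged. Janus kinases (JAKs) bound to the receptor then phosphorylate them, and STAT dimers enter the nucleus and bind DNA. STAT2 acts mainly in ISGF3, the complex with IRF9 that type I and III interferons activate and that binds the interferon-stimulated response element (ISRE). Other STAT dimers bind the gamma-activated sequence (GAS): STAT3 serves IL-6 and IL-10, STAT4 serves IL-12, STAT6 serves IL-4 and IL-13, and the closely related STAT5A and STAT5B serve GM-CSF, growth hormone and many other cytokines. In macrophages these factors take part in antiviral defence, in the restraint of inflammation and in alternative activation.

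In MAARS gapmeR-treated BMDMs, Stat2 transcripts fell by 65.0%, Stat3 by 23.3% and Stat6 by 12.2%, whereas Stat5b rose by 20.4%. Neither Stat4 nor Stat5a passed the test. Hence 3 of 6 members were lower and 1 was higher at a Benjamini-Hochberg adjusted p below 0.05 (edgeR's quasi-likelihood test). This threshold called 45.4% of the whole transcriptome tested, with 24.0% lower and 21.3% higher. DESeq2 called the same 4 members, against a background of 44.3% (22.7% lower, 21.5% higher). In the same 4 members the ranges of the MAARS gapmeR and control libraries did not overlap, as was the case for 42.1% of all genes (22.8% lower and 19.3% higher). With upper-quartile scaling the members' calls were the same, while 27.8% of all genes were higher and 18.2% lower. The number of members called was therefore close to what the background gives. By size, Stat2 was among 220 genes, 1.69% of those tested, with both an adjusted p under 0.05 and a log2 fold change of -1.5 or lower. It lay just inside that mark at -1.52, and just outside it at -1.45 with upper-quartile scaling.

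MAARS itself (Gm14461, ENSMUSG00000054510, chr2:78237547-78302230, plus strand) averaged 13.1 ± 1.36 CPM in the controls and 6.82 ± 0.844 CPM after its gapmeR (SD, n = 4 per group; CPM are read counts scaled to library size with TMM factors). The log2 change was -0.95 (SE 0.112, edgeR adjusted p = 5.8e-05). Library totals ran from 19287279 to 24541205 counts, and every MAARS gapmeR library was deeper than every control. As for the labelled cell type, all 10 macrophage markers were detected, with 6 higher and 3 lower (21.3% and 24.0% of all genes tested). Their summed level was 14968 to 18199 CPM in controls and 18409 to 21804 CPM in MAARS gapmeR libraries, without overlap. The highest marker in this sum was Lyz2, at up to 14677 CPM. Single markers moved in both directions, with log2 fold changes from -2.09 to 0.79. Of the 10, 8 did not overlap between the groups, against 42.1% of all genes tested. The mean log2 CPM of the 10 markers, in which these opposite changes are averaged, did not differ beyond its spread. It was 9.40 ± 0.0918 in controls and 9.39 ± 0.0388 in MAARS gapmeR libraries (SD, n = 4 per group). Of the 7 T cell and 6 NK cell markers 0 passed the filter on low counts, and Cd3g and Gzma were at 0 in all libraries. The marker lists of T cells, B cells and NK cells summed to at most 0.540, 2.46 and 0.324 CPM, and those of dendritic cells to at most 2.81 CPM. The 9 neutrophil and progenitor markers summed to 102.3 to 301.9 CPM and 106.6 to 169.0 CPM, and the 8 fibroblast and stromal markers to 510.1 to 1142 CPM and 815.0 to 1405 CPM, both with overlapping groups. Of the 8 fibroblast and stromal markers, 1 was higher and 0 lower, against 21.3% and 24.0% of all genes tested. Their log2 fold changes were -0.79 to 0.92, and the highest marker was Col1a2 at up to 606.1 CPM. Of 8 neutrophil and progenitor markers tested, 0 were called. The part of such cells in the STAT differences was not tested, and in bulk RNA fewer cells of a type cannot be told apart from less RNA per cell.

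Stat2 (ENSMUSG00000040033, chr10:128270559-128292849, plus strand, GRCm38) encodes the STAT of ISGF3. Its promoter window is shown because it was the window of the most changed member and held an ISRE core. In RefSeq's window for the gene on GRCm38.p6, chr10:128270248-128270547 on the plus strand, which covers 250 bases before and 50 after the start, the capitals mark this match 5′ to 3′.

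Stat2: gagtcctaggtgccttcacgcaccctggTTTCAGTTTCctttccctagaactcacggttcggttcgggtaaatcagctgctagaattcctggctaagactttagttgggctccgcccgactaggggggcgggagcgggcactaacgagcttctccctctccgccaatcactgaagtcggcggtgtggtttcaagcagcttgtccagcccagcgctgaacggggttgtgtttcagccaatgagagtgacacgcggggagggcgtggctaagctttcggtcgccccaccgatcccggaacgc

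The match, from -222 to -213 relative to the start (chr10:128270276-128270285), is the ISRE core (GAAA, 2 bases of any kind, GAAA) read on the opposite strand. These positions refer to the RefSeq start, and the whole window lies before the GENCODE start of Stat2 given above. This core, searched on both strands, was present in 1131 of 32851 mouse promoter windows (3.44%). Stat4, the least abundant member, also had a match, from -97 to -88 relative to its second annotated start (window chr1:52007990-52008289, plus strand), and this window is given for comparison.

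Stat4: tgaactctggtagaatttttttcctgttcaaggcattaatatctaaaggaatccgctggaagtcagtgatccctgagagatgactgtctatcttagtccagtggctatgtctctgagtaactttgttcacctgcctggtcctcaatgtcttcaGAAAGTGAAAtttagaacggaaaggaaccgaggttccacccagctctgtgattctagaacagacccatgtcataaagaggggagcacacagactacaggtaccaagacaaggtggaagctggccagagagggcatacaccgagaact

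The other 7 of the 9 windows listed for the 6 members, those of Stat3, Stat5a, Stat5b and Stat6 and the first of Stat4, did not contain these letters. The GAS core TTCNNNGAA, which reads the same on both strands and was present in 8.3% of all windows (2726), was in 0 of the 9. Only this spacing between TTC and GAA was searched, so elements with another spacing were not counted. A match of this kind is a description of the sequence and does not show that a factor binds there.

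The controls, in the order of replicates 2, 5, 6 and 7, had Stat2 at 340.2, 396.7, 461.9 and 421.1 CPM. The MAARS gapmeR libraries, ordered 9, 11, 13 and 15, had it at 108.4, 153.1, 178.2 and 126.5 CPM. The highest MAARS gapmeR library stayed far below the lowest control. Mean levels were 405.0 ± 50.9 and 141.5 ± 30.6 CPM (SD, 4 libraries a group), and the log2 fold change was -1.52 (SE 0.139, 95% interval -1.82 to -1.21, edgeR adjusted p = 1.12e-05). Of all genes tested, 1.66% had a lower log2 fold change. Stat2 was an abundant transcript, with a mean CPM above that of 95.4% of the genes tested, and 2292 or more reads supported each library's value.

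**Figure D1:**
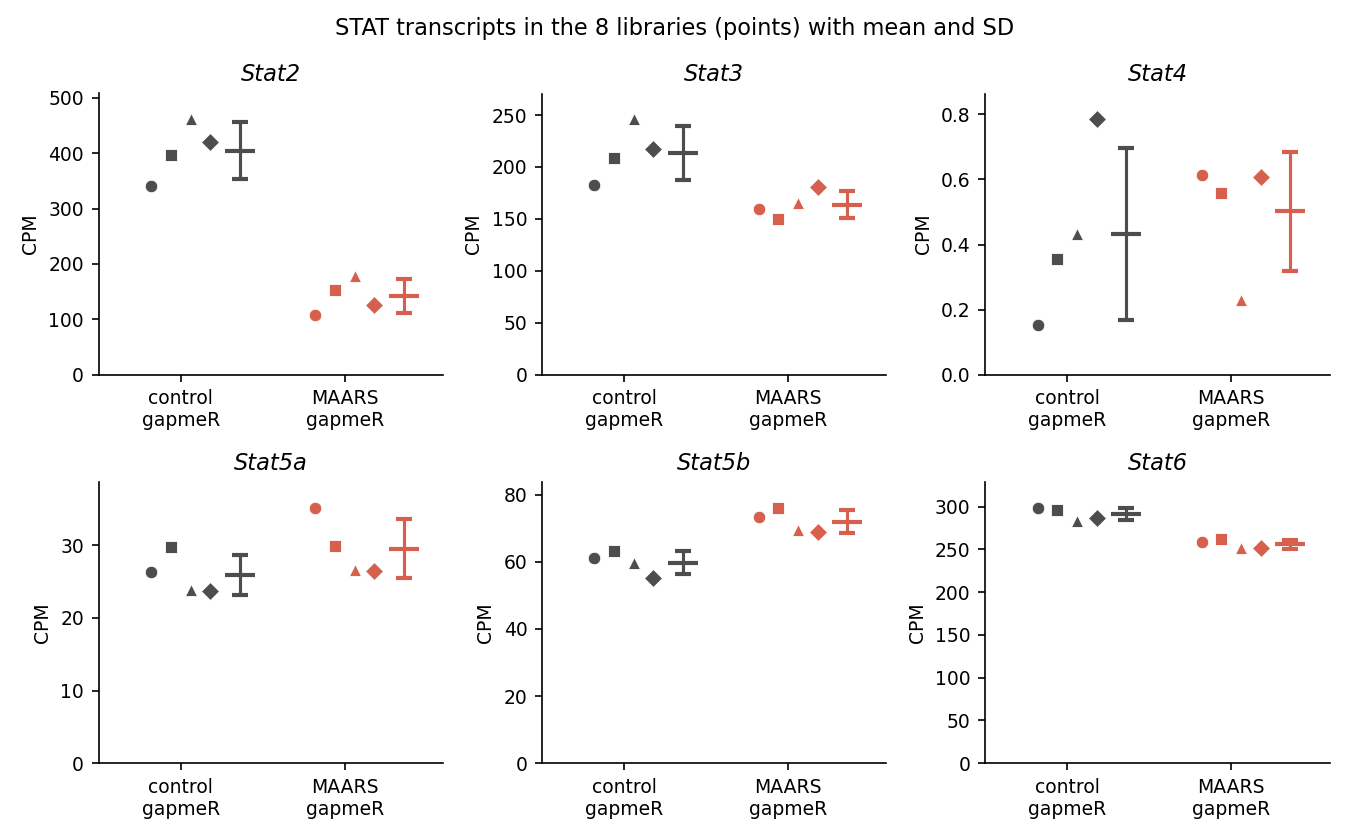
CPM of the 6 STAT transcripts in each library, with points for libraries (the shape only tells the libraries of a group apart) and bars for the mean ± SD of 4 libraries, on linear axes that start at 0. Stat2, Stat3 and Stat6 lie lower and Stat5b higher in all 4 MAARS gapmeR libraries, while Stat4 and Stat5a overlap between the groups.

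Stat3 (ENSMUSG00000004040, chr11:100885098-100939540, minus strand), the STAT of the IL-6 and IL-10 families, was at 182.9, 208.7, 246.1 and 216.8 CPM in the controls. The MAARS gapmeR libraries, in the order above, had 159.3, 150.4, 165.2 and 180.6 CPM. The groups did not overlap, but the gap was narrow: MAARS gapmeR replicate 15 was close to control replicate 2. The log2 fold change was -0.38 (SE 0.0840, adjusted p = 0.00338).

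Stat6 (ENSMUSG00000002147, chr10:127642986-127660957, plus strand) transduces IL-4 and IL-13. It was the steadiest member, at 299.1, 296.7, 283.6 and 286.8 CPM in controls and 259.2, 261.8, 251.4 and 251.8 CPM in MAARS gapmeR libraries. Every treated library was below every control, and the log2 fold change of -0.19 was small but precisely measured (SE 0.0403, adjusted p = 0.00304).

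Stat5b (ENSMUSG00000020919, chr11:100780731-100850724, minus strand) was the one member that rose. Its levels were 61.1, 63.1, 59.7 and 55.1 CPM in controls and 73.4, 76.1, 69.6 and 68.7 CPM in MAARS gapmeR libraries, without overlap. The log2 fold change was 0.27 (SE 0.0550, adjusted p = 0.00221). Its paralog Stat5a (ENSMUSG00000004043, chr11:100859351-100885169, plus strand) had 26.3, 29.7, 23.9 and 23.7 CPM in controls and 35.2, 29.8, 26.6 and 26.5 CPM in MAARS gapmeR libraries. The groups overlapped, and the log2 fold change of 0.19 did not pass (SE 0.102, 95% interval -0.04 to 0.41, adjusted p = 0.153). The difference between the paralogs was not resolved either: the log2 ratio of Stat5a to Stat5b changed by -0.08 (SE 0.0912, exact permutation p = 0.343, two-sided, n = 4 each).

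Stat4 (ENSMUSG00000062939, chr1:51987148-52107189, plus strand), which serves IL-12 in T and NK cells, was barely detected. It had 3, 7, 8 and 16 reads in the controls and 13, 14, 5 and 14 in the MAARS gapmeR libraries, or 0.432 ± 0.264 and 0.502 ± 0.183 CPM, and 0.582% of the genes tested had a lower mean. The log2 fold change of 0.21 had a wide interval of -0.79 to 1.21 (adjusted p = 0.731), so no difference was detectable at this depth. It turned to -0.064 without control replicate 2, the library with the fewest reads of this gene. Of its exon bases, 26.7% (1033) also belong to the noncoding gene Gm28177 on the same strand, so its few reads are uncertain.

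Some STAT genes adjoin each other, so reads that could be shared between genes were counted. Stat5b, Stat5a and Stat3 follow each other on chromosome 11. Exons of Stat5a and Stat3 overlap tail to tail by 72 bases on opposite strands, 1.01% and 0.756% of their exon bases, and Stat5a and Stat5b are 8626 bases apart. Reads from identical sequence cannot be assigned with certainty: Stat5a and Stat5b shared 265 stretches of 100 bases, 3.44% and 4.79% of each gene, whereas Stat2, Stat3 and Stat6 shared 0 with other genes. Stat6 overlaps 40 bases of Nab2, a corepressor of EGR factors, on the opposite strand.

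The nearest tested genes moved in both directions. Beside Stat2, the circadian and replication factor Timeless (17617 bases away) was lower at a log2 fold change of -0.75 (adjusted p = 0.00360), while the poly(A) nuclease subunit Pan2 (10485 bases away) was higher at 0.76 (adjusted p = 2.14e-05), from 8.72 ± 0.235 to 14.8 ± 0.923 CPM. Both genes flanking Stat6, which itself fell, were higher: Lrp1, an endocytic receptor, by 0.29 (adjusted p = 0.00456) and Nab2 by 0.43 (adjusted p = 0.00157, with 42.2% of its exon bases also in other genes). Cavin1, beside Stat3, was higher by 0.83 (adjusted p = 0.00834), with ranges that overlapped: control replicate 7 was at 9.87 CPM and MAARS gapmeR replicate 9 at 9.65 CPM. Ghdc, beside Stat5b, had a log2 fold change of -0.01 that did not pass (adjusted p = 0.969).

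**Figure D2:**
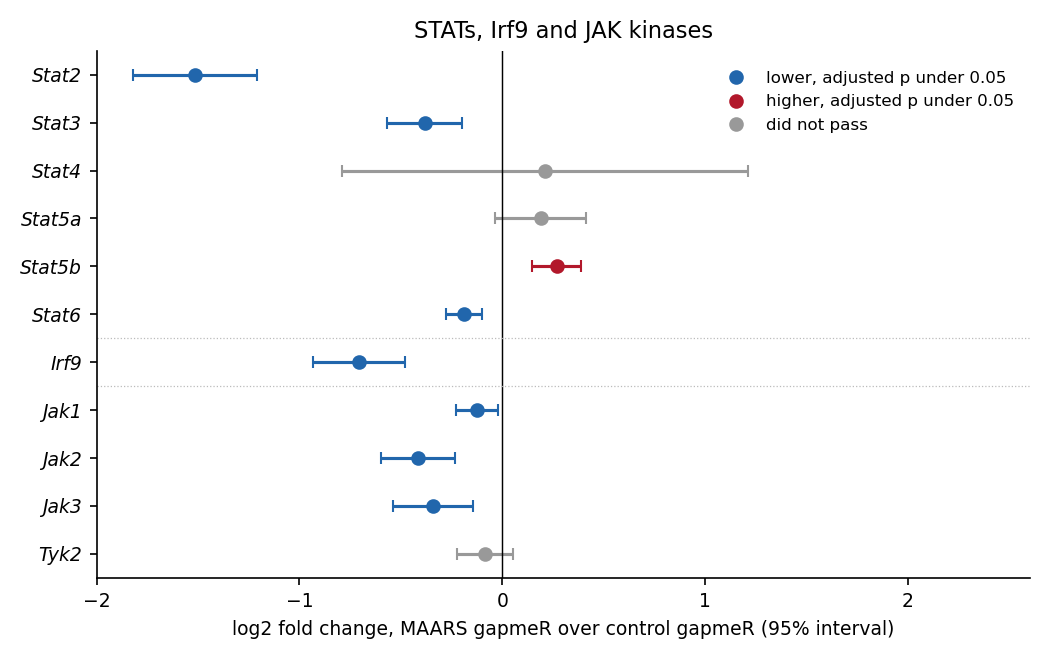
Log2 fold change of MAARS gapmeR over control libraries for the 6 STATs, Irf9 and the 4 JAKs, with 95% intervals from the edgeR fit (n = 4 libraries a group). Stat2 at -1.52 is the farthest from 0, Irf9 at -0.71 is next, Stat5b is the one gene shown that passed as higher, and Stat4 has the widest interval.

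Since longer transcripts give more reads, levels of different genes were compared as CPM per kilobase of exon. In controls Stat2 and Stat6 were at the top, at 68.3 ± 8.59 and 66.2 ± 1.71 CPM per kb (SD, n = 4), and did not differ beyond their spread. Stat3 followed at 22.4 ± 2.73, Stat5b at 10.8 ± 0.615, Stat5a at 3.63 ± 0.393 and Stat4 at 0.112 ± 0.0681. In MAARS gapmeR libraries Stat6 led alone at 58.2 ± 1.19 CPM per kb. Stat2 dropped to 23.9 ± 5.16, where its range overlapped that of Stat3 at 17.2 ± 1.33, followed by Stat5b at 12.99 ± 0.621, Stat5a at 4.14 ± 0.571 and Stat4 at 0.1297 ± 0.0474.

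The makeup of the summed level of these 6 members therefore shifted. Summed over the 6 members, 172 ± 9.48 CPM per kb in controls became 117 ± 4.15, which is 32.1% less (exact permutation p = 0.0286, two-sided, the smallest that 4 against 4 libraries can give). The Stat2 share of this sum went from 39.7% ± 2.91 to 20.4% ± 3.71. Stat6 went from 38.7% ± 3.07 to 49.97% ± 2.14, Stat5b from 6.31% ± 0.557 to 11.2% ± 0.637 and Stat5a from 2.13% ± 0.288 to 3.57% ± 0.581. These 4 of 6 shares did not overlap between the groups (exact permutation p = 0.0286 each, adjusted p = 0.0429 over 6 shares). The Stat3 share, 13.04% ± 0.885 and 14.8% ± 1.43, and that of Stat4, 0.0644% ± 0.0388 and 0.112% ± 0.0431, did not pass (adjusted p = 0.0686 and 0.171). Shares add up to a fixed total, so a fall in 1 member raises the others.

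**Figure D3:**
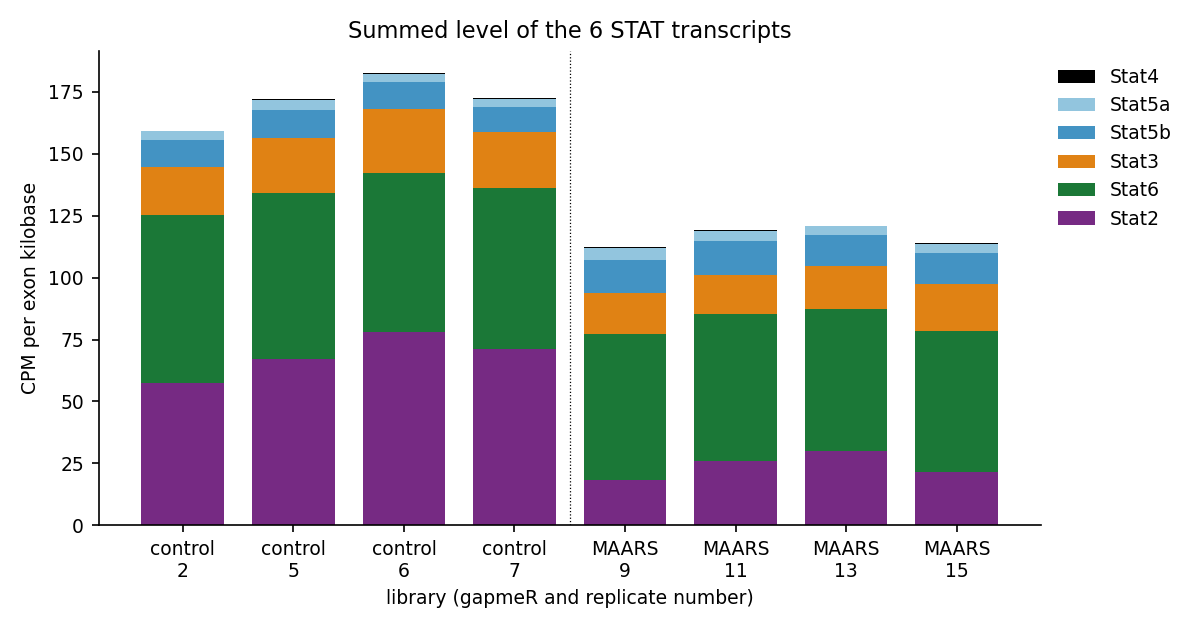
Stacked CPM per exon kilobase of the 6 STAT transcripts in each library, on a linear axis that starts at 0. The summed level is lower in all 4 MAARS gapmeR libraries, the Stat2 layer shrinks most, and the Stat4 layer is too thin to see in most bars.

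Ratios between members do not depend on how libraries are scaled. Of the 15 pairs, 8 had ratios that did not overlap between the groups, each with the smallest possible exact permutation p of 0.0286. After adjustment over the 15 pairs this became 0.0536, so 0 pairs passed. With p at its smallest possible value, the adjusted p depends only on how many pairs separate, so this does not show that ratios were equal. The pairs share members and are not independent. No share over other gene pairs was computed, and 42.1% of single genes tested did not overlap between the groups. In the controls the ratio of Stat2 to Stat3 (CPM per kb) stayed within 2.99 to 3.12, and both transcripts were lowest in replicate 2 and highest in replicate 6. In the MAARS gapmeR libraries it was 1.09 to 1.74, a log2 difference of -1.16 (SE 0.175). The log2 differences of the other Stat2 ratios without overlap were -1.35 to Stat6, -1.72 to Stat5a and -1.80 to Stat5b. Those of Stat3 were -0.56 to Stat5a and -0.65 to Stat5b, and its ratio to Stat6 overlapped between the groups (-0.19, exact permutation p = 0.229). The ratio of Stat5b to Stat6 went from between 0.153 and 0.169 to between 0.217 and 0.231, a log2 difference of 0.46, and that of Stat5a to Stat6 differed by 0.37.

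Upstream of the STATs, 3 of the 4 JAKs were lower and 0 higher, where 24.0% of all genes were lower and 21.3% higher (median log2 fold change of -0.23, against 0.01 for all genes). Jak2, the kinase of the GM-CSF, IL-12 and interferon gamma receptors, fell from 85.6 ± 11.4 to 64.1 ± 2.55 CPM, a log2 fold change of -0.42 (SE 0.0830, adjusted p = 0.00189). Jak3, which pairs with the common gamma chain, fell from 59.0 ± 7.86 to 46.5 ± 3.26 CPM (-0.34, adjusted p = 0.00915), with ranges that overlapped and 7.55% of its exon bases also in another gene. Jak1, at 310.9 ± 9.98 and 285.4 ± 13.1 CPM, passed at the edge of the threshold (-0.12, adjusted p = 0.04999). It failed without control replicates 5, 6 or 7 or MAARS gapmeR replicates 11, 13 or 15 (adjusted p = 0.0688 to 0.131), and under other scalings and filters the adjusted p reached 0.287. Tyk2, a kinase of the type I interferon receptor, was at 92.7 ± 8.43 and 87.4 ± 2.41 CPM, and its log2 change of -0.09 did not pass (adjusted p = 0.287).

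Of 39 cytokine receptor chains, 28 were tested, with 10 lower and 5 higher (median log2 fold change of -0.11), against a background of 24.0% lower and 21.3% higher. The receptor genes with the smallest p were Il13ra1, the IL-13-binding partner of IL-4Ra (-1.16, from 34.7 ± 3.96 to 15.6 ± 2.53 CPM), Il2rg, the common gamma chain (-1.35, from 94.8 ± 19.4 to 37.1 ± 4.90 CPM), and Il12rb1 (-2.02, from 5.83 ± 1.95 to 1.44 ± 0.371 CPM). Their edgeR adjusted p were 1.68e-05, 1.93e-05 and 0.00016, and of the exon bases of Il2rg 30.5% also belong to another gene. The 5 that were higher, named after their values were seen, were Ifnar1 of the type I interferon receptor (0.29), Lifr (0.71), Epor (1.14), Ghr (0.71) and Il6ra (0.30). Ghr lost its call without control replicates 2, 5 or 6 or MAARS gapmeR replicates 11 or 13 (adjusted p = 0.0542 to 0.0691), and Il6ra without control replicates 2 or 7 or MAARS gapmeR replicates 9 or 13 (0.0645 to 0.0856).

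Few of the ligands were measurable. Only 9 of 31 cytokines passed the filter, of which 4 were lower and 2 higher (24.0% and 21.3% in the background, median log2 fold change of -0.30), and Ifnb1, Ifng, Il6, Il12b and Il13 were among those that did not. Il15 fell by 0.75 on the log2 scale (adjusted p = 6.2e-05), Il10 by 1.41 (adjusted p = 0.00038) and Ebi3, a subunit of IL-27, by 0.39 (adjusted p = 0.00077), although 23.4% of Ebi3 exon bases also belong to another gene. The other lower gene, Il27 (-1.55), and the 2 higher ones, Il4 (0.55) and Clcf1 (0.84), were named after their values were seen, and these 3 were at mean levels of 3.08 CPM or less. Il4 lost its call without control replicate 6 or MAARS gapmeR replicates 9 or 13 (adjusted p = 0.0596 to 0.0683), and Clcf1 without any library but control replicate 7 and MAARS gapmeR replicate 9 (0.0563 to 0.0985).

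Of the 19 negative regulators 7 were lower and 5 higher (median log2 fold change of -0.03), against a background of 24.0% lower and 21.3% higher. The lower genes with the smallest p were Pdlim2, a ubiquitin ligase for STAT proteins (-0.66, adjusted p = 1.1e-05), Ptpn6, the phosphatase SHP-1 (-0.55, from 342.0 ± 14.9 to 233.8 ± 14.2 CPM), and Usp18, which removes ISG15 and restrains interferon receptor signalling (-2.32, from 95.2 ± 11.3 to 19.1 ± 8.35 CPM). The higher ones, again named after their values were seen, were Socs2 (0.92), Pias2 (0.34), the adaptor Sh2b3 (0.28), Socs5 (0.25) and Socs6 (0.21). Socs5 failed without control replicates 2 or 6 or MAARS gapmeR replicates 11 or 13 (adjusted p = 0.0555 to 0.0816), and Socs6 without control replicates 2 or 7 or MAARS gapmeR replicates 9, 13 or 15 (0.0527 to 0.134).

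Among 16 STAT partners and nuclear transport factors, 7 were lower and 3 higher (median log2 fold change of -0.11), against a background of 24.0% and 21.3%, and these numbers turned to 3 lower and 5 higher with upper-quartile scaling. Irf9, the DNA-binding partner of STAT2 in ISGF3, fell from 122.0 ± 6.00 to 74.7 ± 13.3 CPM, a log2 fold change of -0.71 (SE 0.103, adjusted p = 0.00024), a smaller change than that of Stat2. Nmi, which binds several STATs, fell by 1.00 (adjusted p = 1.1e-05) and the importin Kpna6 by 0.29 (adjusted p = 0.00062). The 3 higher genes, named after their values were seen, were the adaptors Stam (0.40) and Stam2 (0.25) and the importin Kpna2 (0.32).

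**Figure D4:**
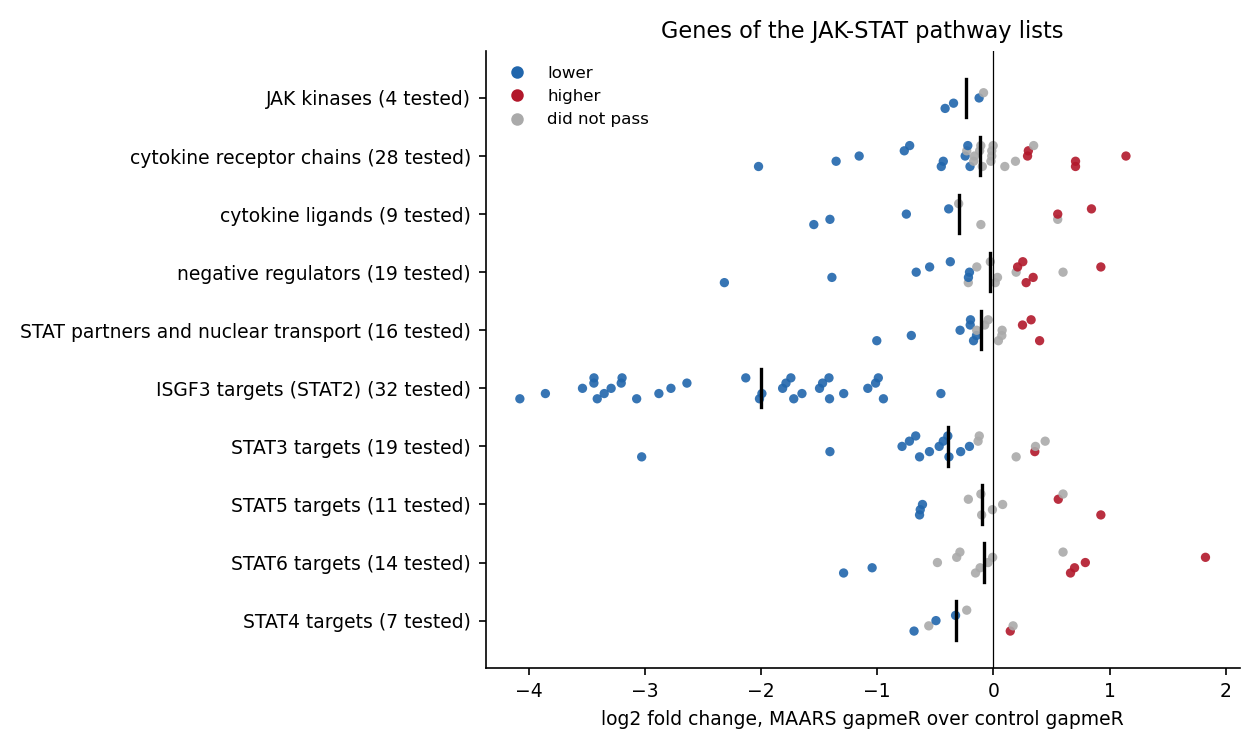
Log2 fold change of each tested gene in 10 JAK-STAT pathway lists (points, coloured by the edgeR call at an adjusted p under 0.05), with the median of each list as a black bar. The ISGF3 targets lie wholly below 0 with a median of -2.003, the STAT3 targets have a median of -0.39, and the STAT5 and STAT6 targets lie on both sides of 0.

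Known target genes of each STAT were then counted. Of 33 ISGF3 targets 32 were tested, and 32 were lower with groups that did not overlap, where 24.0% of all genes were lower and 22.8% were lower without overlap. They had log2 fold changes from -4.08 to -0.45 and a median of -2.003. Examples were the antiviral ligase-like gene Herc6 (-1.81, with 13.7% of its exon bases also in another gene), Mx2 of the Mx GTPase family (-2.64, from 31.1 ± 4.52 to 4.98 ± 1.503 CPM) and tetherin, Bst2 (-1.99, from 810.0 ± 91.6 to 203.6 ± 44.4 CPM). The annotation used here lists Mx2 as a polymorphic pseudogene. Neither Stat2 nor Irf9 was on that list, but the fall of interferon-stimulated genes in these libraries was known when it was written.

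Averaged over these 32 genes, log2 CPM in the controls, listed as before, came to 7.90, 8.10, 8.37 and 8.27. The MAARS gapmeR libraries had means of 5.20, 6.07, 6.37 and 5.67. Within each group this is the same order of libraries as for Stat2. With 4 libraries in a group this is given as a description without a correlation, and the libraries share their depth and scaling. Stat3 had that order in the controls but not in the MAARS gapmeR libraries, where replicate 15 was highest.

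**Figure D5:**
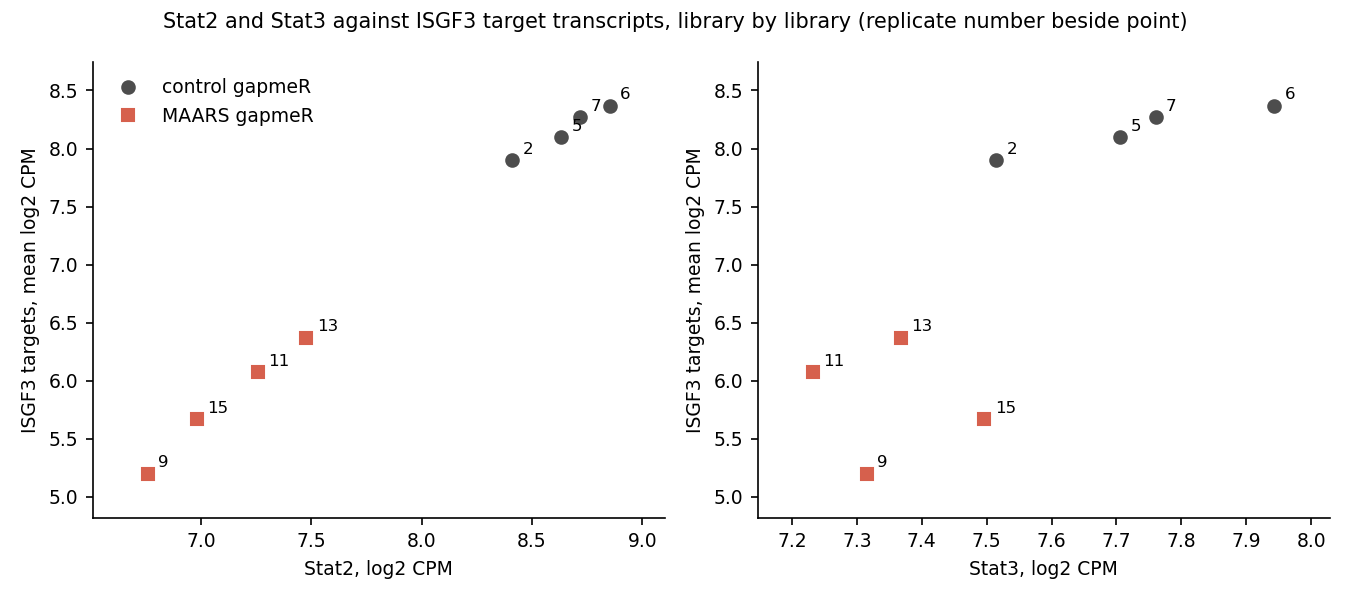
Mean log2 CPM of 32 ISGF3 target genes against log2 CPM of Stat2 (left) and of Stat3 (right), 1 point a library with its replicate number. Within each group the libraries have the same order for Stat2 and for the targets, while for Stat3 the MAARS gapmeR libraries do not.

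Of the 19 STAT3 targets, 13 were lower and 1 higher, against 24.0% and 21.3% of all genes, with a median log2 fold change of -0.39. The kinase Pim1 fell by 0.64 (adjusted p = 9.28e-06, with 14.5% of its exon bases also in another gene), the prothrombinase Fgl2 by 3.03 (from 209.9 ± 91.99 to 25.8 ± 5.53 CPM) and the cytokine Il10 by 1.41, as above. The 1 higher gene, named after its values were seen, was the transcription factor Cebpd (0.36). Of 14 STAT5 targets, 11 were tested, with 3 lower and 2 higher, against a background of 24.0% and 21.3% (median of -0.10): Pim1, the repressor Bcl6 (-0.61) and the survival factor Bcl2l1 (-0.63) fell, while Pim2 (0.56) and Socs2 (0.92), both named after their values were seen, rose.

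Of 26 STAT6 targets 12, among them Arg1 and Retnla, did not pass the filter on low counts. Of the 14 tested, 4 were higher and 2 lower (median log2 fold change of -0.08), a number called near the background of 45.4%. The mannose receptor Mrc1 rose from 673.0 ± 15.2 to 1164 ± 99.3 CPM, a log2 fold change of 0.79 (SE 0.0612, adjusted p = 5.45e-06). The lectin Clec10a rose by 0.66 (adjusted p = 9.0e-05), whereas the transcription factor Klf4 fell by 1.04 (adjusted p = 3.4e-05). Named after their values were seen, Ccl24 (1.82) and Egr2 (0.70) were also higher, and Flt1 was lower at -1.29. Flt1 lost its call without any library but control replicate 7 and MAARS gapmeR replicate 11 (adjusted p = 0.0604 to 0.0875). Ccl24 and Flt1 were at 1.11 CPM or less in both groups.

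Only 7 of 12 STAT4 targets were measurable, Ifng and Tbx21 not among them, with 3 lower and 1 higher (median log2 fold change of -0.33), against 24.0% and 21.3% of all genes. Irf1 fell by 0.68 (adjusted p = 0.00056) and Cxcr3 by 0.49 (adjusted p = 0.00339). The protease gene Furin was higher by 0.14 (adjusted p = 0.0225). Furin lost its call without control replicate 5 or MAARS gapmeR replicates 9 or 15 (adjusted p = 0.0613 to 0.0684). All these lists hold genes that other factors also control. They were counted without regard to whether a STAT raises or lowers each gene.

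Finally, the genes whose profile over the 8 libraries was most like each member were listed, by the root mean square difference of log2 CPM after each gene was centred on its own mean. Nearest to Stat2 were Ddx60 (0.0494), Ifi203 (0.0514) and Gbp9 (0.0597), against a median of 0.818 over all genes. For Stat3 they were Gngt2, Sertad1 and Limd2 (0.0532 to 0.0541, median 0.286), for Stat5a Ylpm1, Amer1 and Tns1 (0.0466 to 0.0615, median 0.253), for Stat5b Dync1li2, Ganab and Iqgap1 (0.0198 to 0.0308, median 0.237) and for Stat6 Atg12, Kif1c and Trappc13 (0.0185 to 0.0245, median 0.199). The low counts of Stat4 left its nearest genes, Insl3, Gm12992 and Gm44154, farther off (0.283 to 0.293, median 0.617). These values describe likeness over 8 libraries that share 1 contrast. The genes named were picked for the smallest distances, so their place below the median follows from that choice.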

How the data were processed

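RNA-Seq counts from 8 BMDM libraries were used, 4 with control gapmeR and 4 with MAARS gapmeR, grouped by their labels. Per the submitters' processing notes and the study's methods, the authors trimmed reads with Trimmomatic 0.36, aligned them with STAR 2.5.2b to GRCm38 with Ensembl transcripts and ran featureCounts (Subread 1.5.2) for gene counts. The deposited values are these raw counts, not normalized. The strand setting and the treatment of reads that map to several places are not given in the sources used here, so reads in overlapping exons and near-identical paralogs are uncertain.

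Low genes were removed by filterByExpr (a minimum count of 10 and a total of 15), and the rest were scaled by TMM and tested with edgeR 4.0.16 (glmQLFit, glmQLFTest, R 4.3.3) with Benjamini-Hochberg adjustment over 13051 genes. Intervals used the t distribution of the fit. On simulated data for this comparison with 200 changed genes among 13051, 74% of 1.5-fold and 87% of 2-fold changes were called, and 7.47% of calls were unchanged genes. In the real data 45.4% of genes were called, so these rates need not hold there. Ratios and shares of members (CPM per kilobase of GENCODE M21 exon) were compared by two-sided exact permutation tests. Alternatives were RLE and upper-quartile factors, DESeq2 1.42.0, limma-voom 3.58.1, 2 other filters, counts thinned to the smallest library and each library left out. Replicates differed by a chi-square of 4.24 to 15.1 per gene, so no 2 libraries agreed within sampling noise. RefSeq promoter windows were searched for the ISRE and GAS cores.

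The members, gene lists and tests were chosen with earlier results of these data known. Genes were named by rule: the members, MAARS, the JAKs, Irf9, the 3 genes of smallest p in each other pathway list, the 3 nearest profiles and the neighbours and overlapping genes of each member. Some items are not reported here.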

Additional observations from a re-analysis of the deposited data

Results flagged for a closer look

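In 8 of 210 groups of 4 values examined, 1 library stood apart from the other 3 by more than Dixon's 95% critical value for the ratio of gap to range, and chance gives about 1 in 20. Stat4 was lowest in MAARS gapmeR replicate 13, at 0.230 CPM against 0.557 to 0.615 CPM in the other MAARS gapmeR libraries. Il15 was lowest in control replicate 2, at 29.1 CPM against 37.6 to 38.8 CPM in the other controls. Insl3, with 64.8% of its exon bases also in another gene, was highest in control replicate 7, at 1.33 CPM against 0.512 to 0.611 CPM. In MAARS gapmeR replicate 11, Ganab was at 216.1 CPM against 202.3 to 204.2 CPM and Stam2 at 73.4 CPM against 67.9 to 68.7 CPM. Pias2 was highest in MAARS gapmeR replicate 9, at 40.0 CPM against 35.2 to 35.8 CPM. Among the means over a list, the STAT5 targets were highest in control replicate 7, at a mean log2 CPM of 3.93 against 3.77 to 3.78. The neutrophil and progenitor markers were lowest in MAARS gapmeR replicate 9, at a mean log2 CPM of 2.48 against 2.84 to 2.87.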

How the results depend on the processing

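The calls of the 6 members were the same in all 15 alternative fits, in which the adjusted p of Stat5a was 0.0599 to 0.436. Without each library in turn, log2 fold changes were -1.65 to -1.41 for Stat2, -0.45 to -0.31 for Stat3, -0.064 to 0.68 for Stat4, 0.09 to 0.26 for Stat5a, 0.23 to 0.29 for Stat5b, -0.20 to -0.17 for Stat6 and -1.01 to -0.88 for MAARS. Stat4 turned to -0.064 without control replicate 2 (adjusted p = 0.918). No paired analysis was possible because the groups share no replicate number. With plain counts in place of counts per kilobase, each of the 6 shares kept its direction and its side of the threshold, whereas the differences in pair ratios cannot change by construction. Ratios and shares have no test without a library, since 4 against 3 cannot reach a p below 0.0571. Upper-quartile scaling moved the median of all genes by 0.0627 on the log2 scale and left 5 partners and transport factors higher and 3 lower, against 3 and 7. With DESeq2, 1 ligand was higher, not 2. Without a filter, 2 STAT3 targets and 0 STAT4 targets were higher, against 1 and 1. Leaving out libraries gave 3 to 5 higher receptor chains, 0 to 3 higher ligands, 3 to 5 higher negative regulators, 1 to 2 higher STAT3 targets, 1 to 2 lower STAT6 targets and 0 to 1 higher STAT4 targets. Lower counts moved as well, with 2 to 4 JAKs, 8 to 12 receptor chains and 7 to 8 negative regulators. Partners and transport factors had 5 to 7 lower genes, STAT3 targets 11 to 13 and STAT4 targets 2 to 3. Across the other settings the lower counts were 2 to 3 for JAKs, 8 to 11 for receptor chains and 4 to 6 for ligands. They were 6 to 8 for negative regulators, 11 to 13 for STAT3 targets and 2 to 4 for STAT4 targets. Insl3 and Ghdc, which lay near 0, changed sign. Insl3 was at 0.00702 with DESeq2, 0.00600 with RLE factors, 0.00547 with limma-voom, 0.00861 with thinned counts, 0.061 with upper quartiles and -0.21 to 0.42 without each library. Ghdc was at 0.00170 with DESeq2, 0.00169 with RLE factors, 0.00479 with limma-voom, 0.057 with upper quartiles and -0.063 to 0.092 without each library. The cause of these changes was not tested. Alternatives for single genes other than the members and MAARS were added after seeing the data. With 3 to 16 reads a library, depth limits Stat4 most.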
